A study of Mus musculus with 15 samples.

Results

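Whole testes given a treatment labelled AA were compared with whole testes given a treatment labelled MTX, gene by gene. These 6 libraries, 3 per treatment, are part of a series of 15 libraries in 5 groups, whose title concerns modifications of histones H3 and H4 and the organisation of chromosomes in prophase I of meiosis. The genotype label of both groups, and of the Control group used here as a reference, is C57/BL6, and the only labelled difference between them is the treatment. The labels do not expand the abbreviations AA and MTX and give no dose, duration or age, and they do not say whether replicates are separate animals. The p-values are therefore no more than a measure of how far these libraries differ from each other, and that spread may be technical. Of 36118 genes in the table, 17896 reached a mean of 10 normalised counts across the 15 libraries and were compared.

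A testis is mostly germ cells at successive stages. Spermatogonia divide, spermatocytes pair and recombine their chromosomes in meiosis, and haploid spermatids replace their histones with protamines and build a tail. Around them lie Sertoli cells, which nurse the germ cells, Leydig cells, which make testosterone from cholesterol, and myoid, vessel and immune cells. RNA from the whole organ mixes all of these, so fewer cells of a type and less RNA per cell cannot be told apart.

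The defining transcripts of the tissue were present in the 6 libraries. Prm1, which encodes a protamine, lay between 27525 and 101050.0 normalised counts, Sycp3 of the meiotic chromosome axis between 6784 and 20766, the Leydig cell enzyme Cyp17a1 between 9228 and 20051, and the Sertoli cell regulator Sox9 between 176 and 1093. The epididymal gene Lcn5 was at 0 in all 6, and Crisp1 reached at most 2.24. The fat cell gene Adipoq was present in all 6, between 173 and 541.

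The libraries of both treatments differed strongly by replicate number. The mean level of 59 replication-dependent histone genes, on the log2(normalised count + 1) scale used throughout, was 8.62, 3.27 and 3.36 in AA replicates 1, 2 and 3, and 7.79, 2.97 and 3.71 in MTX replicates 1, 2 and 3. The 13 protein genes of the mitochondrial genome took 1.28%, 5.95% and 8.23% of the normalised counts in the AA libraries and 1.11%, 13.7% and 5.08% in the MTX libraries. Replicate 1 of each treatment was thus rich in histone transcripts and poor in mitochondrial ones, and replicates 2 and 3 were the reverse. Whole reads could not be recovered, but the commonest low value in a library, taken as about the worth of 1 read, gave relative depths of 1.28, 2.85 and 5.02 for AA and 1, 4.44 and 4.27 for MTX. Replicate 1 was therefore the shallowest library of each treatment on this measure. Treatments were compared over all 3 replicates and also within each replicate number, as AA1 minus MTX1, AA2 minus MTX2 and AA3 minus MTX3, called pairs 1, 2 and 3 below.

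No gene passed the test of AA against MTX. Over all 17896 genes, limma called 0 genes (0%) at an adjusted p under 0.05, the smallest Benjamini-Hochberg adjusted p being 1, and 304 genes (1.7%) had an unadjusted p under 0.05. With the replicate number as a block over the 12 treated libraries, limma again called 0 genes (0%), with a smallest adjusted p of 0.66 and 1256 genes (7.02%) at an unadjusted p under 0.05. The median difference over all genes was 0.00, with 9009 genes (50.3%) higher in AA and 8884 (49.6%) lower. All 3 AA values lay above all 3 MTX values in 481 genes (2.69%) and below them in 466 genes (2.6%). AA was higher in all 3 pairs in 2181 genes (12.2%) and lower in all 3 in 2015 genes (11.3%). The values below are therefore differences that did not pass, and the verbs higher and lower describe the 6 libraries only.

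Among genes whose mean reached 50, with a proper symbol and the same sign in all 3 pairs, the 10 higher in AA with the smallest p differed by 0.65 to 1.39 and the 10 lower by -1.71 to -0.54. Their groups did not overlap, which the choice by p and sign favours. Arhgef40, a guanine nucleotide exchange factor, had 54.6, 81.0 and 56.2 normalised counts in AA replicates 1, 2 and 3 and 169, 157 and 221 in MTX. The AA values lay below the Control range of 108 to 156 and the MTX values above it. The difference was -1.51 (SE 0.37), and -1.61, -0.95 and -1.96 in pairs 1, 2 and 3. Krtcap2, a subunit of the oligosaccharyltransferase that attaches sugars to new proteins, had 403, 268 and 227 in AA and 539, 678 and 541 in MTX, a difference of -1.0 (SE 0.25). Srp14, part of the signal recognition particle that brings new proteins to the endoplasmic reticulum, had 5589.6, 3577 and 3905 in AA and 6607, 7013 and 7054 in MTX, a difference of -0.69 (SE 0.20). In both genes AA1 was the highest AA library and AA2 and AA3 lay well below it.

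Polr2k, a small subunit shared by the RNA polymerases, had 833, 809 and 743 in AA and 1278, 1136 and 1846 in MTX, a difference of -0.81 (SE 0.22). Krt10, a keratin, had 150.3, 40.0 and 34.1 in AA and 189, 222 and 179.7 in MTX. Its difference of -1.71 (SE 0.50) was the largest of the 10 and rested mainly on pairs 2 and 3, the pair differences being -0.33, -2.44 and -2.36. The remaining genes were Psma3, a core subunit of the proteasome (-0.62, SE 0.18), Ppp1r11, an inhibitor of protein phosphatase 1 (-0.67, SE 0.20), Mad2l2, a subunit of the translesion DNA polymerase zeta (-0.69, SE 0.21), Nme7 of the nucleoside diphosphate kinase family (-0.54, SE 0.16), and Cox16, an assembly factor of cytochrome c oxidase (-0.79, SE 0.24). Against Control, all 3 AA values lay below all 3 Control values in 5 of the 10 genes (Arhgef40, Krtcap2, Polr2k, Krt10 and Mad2l2), and all 3 MTX values lay above them in 4 (Arhgef40, Srp14, Psma3 and Nme7). Over all genes these shares were 2.23% and 1.32%, and nothing is read from the counts, since the choice of genes by AA against MTX favours such positions.

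Among the 10 genes higher in AA, Mill2, a relative of the class I histocompatibility proteins, had 126, 96.8 and 113 in AA and 33.6, 59.7 and 61.7 in MTX, a difference of 1.14 (SE 0.37). Gpc1, a heparan sulphate proteoglycan, had 246, 229.9 and 184 in AA and 111, 59.7 and 148 in MTX, a difference of 1.13 (SE 0.40). Tnfrsf12a, the receptor of the cytokine TWEAK, had 103, 114 and 112 in AA and 97.0, 16.8 and 42.5 in MTX. Its AA libraries were even and the MTX libraries spread widely, with MTX1 close to AA, so that the difference was 1.39 (SE 0.50) in the fit and 0.09 in pair 1. Nipal3 had the tightest AA values of the group, 142, 141 and 140.3 against 71.9, 71.2 and 85.4 in MTX, a difference of 0.88 (SE 0.32).

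The sorting receptor Sorl1 had 625, 592 and 517 in AA and 243, 318 and 338 in MTX, a difference of 0.96 (SE 0.34). Abcb1b, which encodes a drug efflux pump of the P-glycoprotein type, had 44.3, 78.4 and 85.6 in AA and 25, 41.6 and 36.2 in MTX, a difference of 0.97 (SE 0.35). Dnmt3a, which places new DNA methylation, had 1124, 643 and 913 in AA and 602, 581 and 453 in MTX. Its difference was 0.68 (SE 0.25), and the AA2 and MTX1 libraries nearly met. Cers6, a ceramide synthase (0.65, SE 0.23), Tcaf1 (0.83, SE 0.30) and Pcnx3 (0.68, SE 0.22) made up the rest. All 3 AA values lay above all 3 Control values in 6 of the 10 genes (Mill2, Gpc1, Sorl1, Nipal3, Tcaf1 and Tnfrsf12a), and all 3 MTX values lay below them in 2 (Pcnx3 and Dnmt3a), beside 2.81% and 1.15% of all genes, with the same limit from the choice of genes. The longest transcripts of the 10 higher genes had a median length of 5205 bases and those of the 10 lower genes 1803 bases, beside 3064 bases over all genes tested. The part of transcript length in these differences was not tested.

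**Figure D1:**
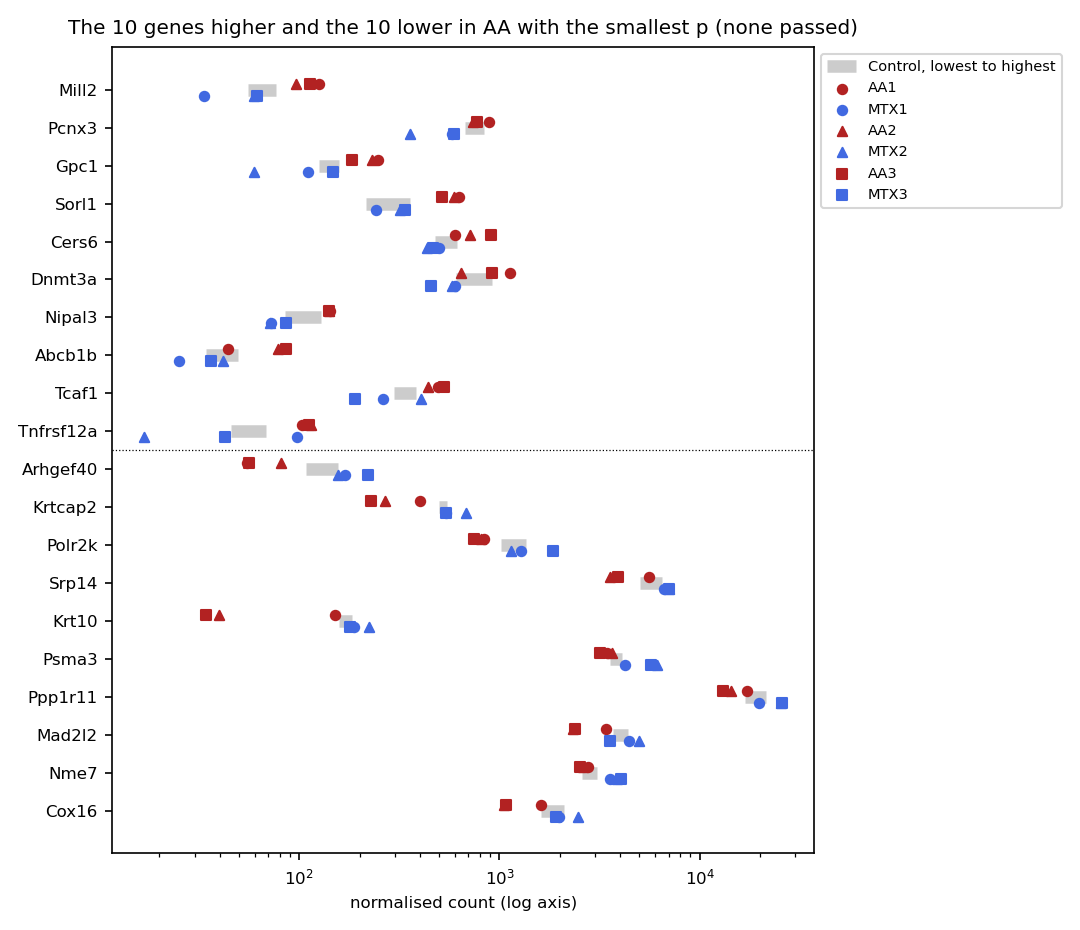
Normalised counts (horizontal, log axis) of the 10 genes higher and the 10 genes lower in AA with the smallest p. Red symbols are AA libraries, blue symbols MTX libraries, shape gives the replicate number and the grey bar spans the 3 Control libraries. In each gene the red and blue symbols do not overlap, and for Arhgef40 and Krtcap2 the AA symbols lie below the Control bar.

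When the spread was taken from the 6 AA and MTX libraries alone, limma called 2 genes, both multicopy genes of the Y chromosome that were listed at 0 in all 3 MTX libraries. Gm21704, which is nearly identical to the germ cell RNA-binding gene Rbmy, had 264, 312 and 519 in AA, 0 in each MTX library and 195 to 501 in Control (adjusted p = 0.00549 from limma). Gm20869 had 318, 158 and 148 in AA, 0 in each MTX library and 0 to 65.1 in Control (adjusted p = 0.0133 from limma). No fold is given against a group at 0. Both genes share nearly all of their sequence with other genes of the Y chromosome, so reads that match several copies can be divided among them in more than a single way.

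A stretch of sequence shows how alike the copies are. Printed here are bases 217 to 306 of the coding sequences of Gm21704, of 2 copies whose 31-base words it shares in full, and of Rbmy, from the GENCODE M21 transcripts of GRCm38, with positions chrY:3373567-3373656 on the minus strand, chrY:3301605-3301694 on the minus strand, chrY:2937514-2937603 on the plus strand and chrY:2835331-2835420 on the plus strand. A capital marks a base that differs from Gm21704.
Gm21704: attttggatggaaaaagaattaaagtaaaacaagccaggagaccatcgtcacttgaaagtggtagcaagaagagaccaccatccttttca
Gm21677: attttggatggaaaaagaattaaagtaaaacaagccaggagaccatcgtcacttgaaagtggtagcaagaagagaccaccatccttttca
Gm29289: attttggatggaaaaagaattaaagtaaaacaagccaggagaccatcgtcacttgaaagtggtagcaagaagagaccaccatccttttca
Rbmy: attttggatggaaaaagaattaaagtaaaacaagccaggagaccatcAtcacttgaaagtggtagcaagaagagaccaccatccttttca
The first 3 are identical over these 90 bases and Rbmy differs at 1 base.

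Summed over copies, the Y-linked genes did not separate the groups. Gm21704 and the genes that share all of its 31-base words, 3 genes in all, summed to 514, 874 and 852 in AA and 547, 1401 and 325 in MTX. The Rbmy family of 10 genes summed to 1343, 2219 and 2613 in AA and 1602, 3418 and 1101 in MTX. For Gm20869, the 12 genes of shared words summed to 1302, 1091 and 1471 in AA and 1077, 11297 and 547 in MTX. Its family of 126 genes, which includes the spermatid gene Sly, summed to 19532, 15382 and 16795 in AA and 18875, 51073 and 9513 in MTX. In each of these 4 sums MTX2 lay above and MTX3 below all AA libraries, and the call on either single copy is uncertain.

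**Figure D2:**
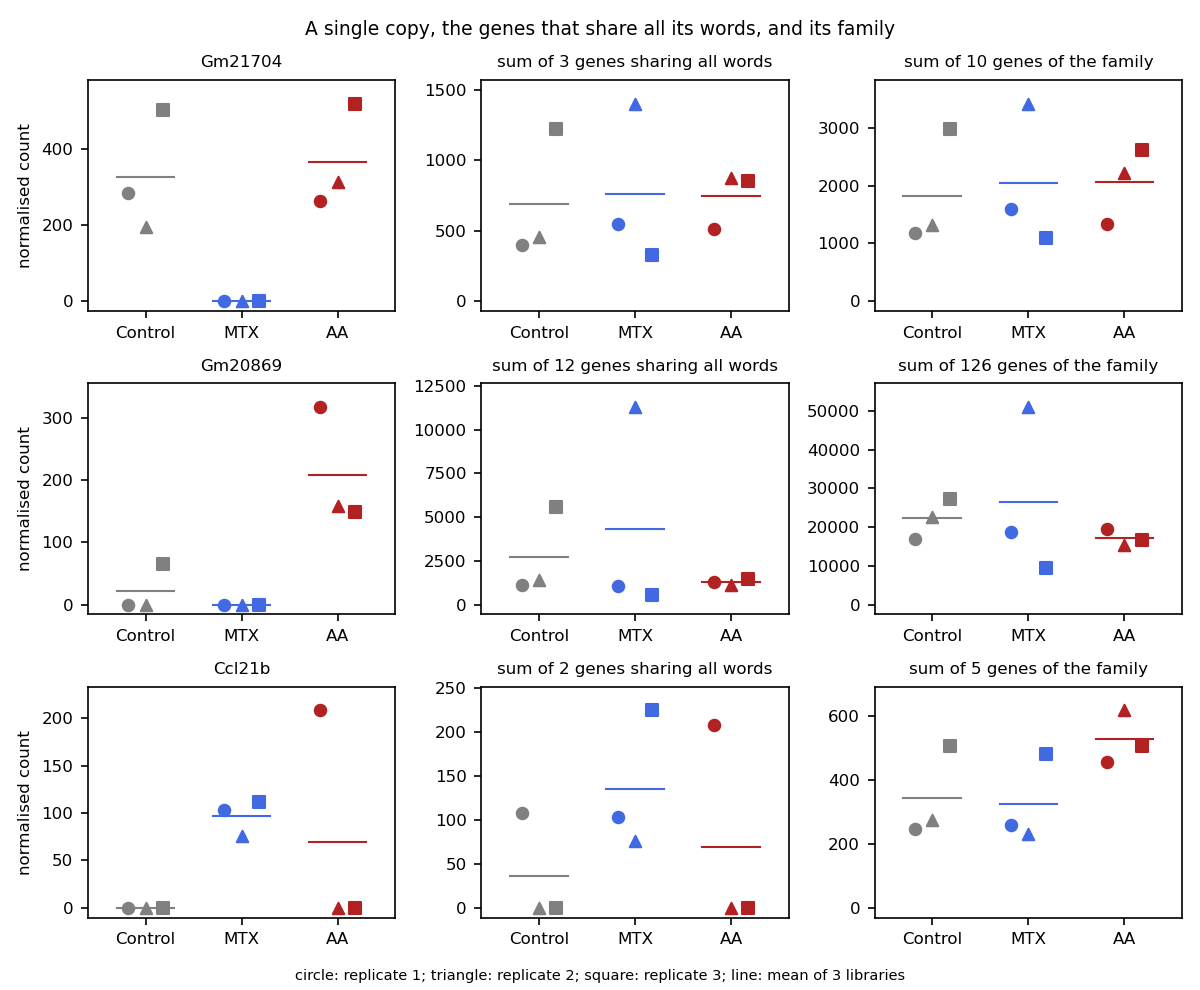
Normalised counts (vertical, linear axes) in the Control, MTX and AA libraries for 3 genes called in some fit (left), for the sum over genes that share all of their 31-base words (middle) and for the sum over the gene family (right). Symbols are libraries, shape gives the replicate number and lines are means of 3 libraries. Gm21704 and Gm20869 are at 0 in all MTX libraries, while the sums of their copies overlap between AA and MTX.

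Genes of pachytene and late spermatocytes were mostly lower in AA. Of 16 genes tested, 14 were lower, with a median difference of -0.23 against 0.00 over all genes, and -0.09, -0.52 and -0.30 in pairs 1, 2 and 3. All 3 AA values lay below all 3 MTX values in 4 of them, 25% of the list against 2.6% of all genes. Ldhc, the lactate dehydrogenase of germ cells, had 114798, 104921 and 82259.5 in AA and 132091, 164584 and 179159 in MTX, a difference of -0.66 (SE 0.23) with a Control range of 106641 to 127120.0. Aurkc, a kinase of the meiotic divisions, had 763, 512 and 639 in AA and 850.2, 1060.5 and 925 in MTX, a difference of -0.58 (SE 0.21). The other 2 were Tbpl1, a relative of the TATA-binding protein needed in spermatids (-0.34, SE 0.18), and the centrosomal kinase Nek2 (-0.33, SE 0.22). For Aurkc, AA1 lay within the Control range of 655 to 976, AA2 and AA3 below it, and the MTX values within or above it. None of these passed the test. The list median kept its sign in all 19 other settings tried, between -0.40 and -0.06. Some of these, such as the fits with a replicate block or the 6 libraries alone, change only the spread and cannot move a median.

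Genes of meiotic recombination showed a small median difference of -0.06, with 21 of 32 lower, and the median was 0.08 without replicate 2 in both groups. In 4 of the genes, 12.5% of the list against 2.6% of all genes, all AA values lay below all MTX values. Spo11, which makes the DNA breaks that start recombination, had 2847, 1713 and 1709 in AA, 3287, 3559 and 2993 in MTX and 2510.1 to 3139 in Control, a difference of -0.69 (SE 0.22). AA1 lay within the Control range and AA2 and AA3 below it. Msh4, which stabilises crossover intermediates (-0.36, SE 0.23), Rnf212, which marks crossover sites (-0.50, SE 0.31), and Mcmdc2, needed for homologue alignment (-0.32, SE 0.20), were the other 3. The strand exchange recombinase Dmc1 had 597, 869 and 990.1 in AA and 673, 988 and 782 in MTX, a difference of -0.01 (SE 0.29). Ccnb1ip1 had 448329, 124 and 467 in AA and 222044, 217 and 331 in MTX, so that its spread between replicates far exceeded its difference of 0.24 (SE 4.32).

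The chromosome axis and synapsis genes depended on a single pair. The list had 17 of 21 genes lower in AA and a median of -0.19, but the pair medians were 0.02, -0.85 and -0.03. Without replicate 2 in both groups the list median was 0.02. Sycp1, the transverse filament protein of the synaptonemal complex, had 15289.5, 19836 and 19551 in AA and 12409.6, 59272 and 8786 in MTX. Smc1b, a meiotic cohesin, had 15733, 13929 and 11226 in AA and 13856, 41009 and 4294 in MTX. In both genes MTX2 was the highest of the 6 libraries and MTX3 the lowest. The GC content of the list's transcripts had a median of 40.9%, against 49.0% over all genes tested, and differences in pair 2 ran with GC content as given below. Their part in the result was not tested.

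Later germ cell genes had small median differences. AA was lower in 11 of 19 round spermatid and acrosome genes, 16 of 23 elongating spermatid genes and 17 of 23 axoneme genes. The median difference was -0.08 for the round spermatid list, -0.06 for the elongating spermatid list and -0.11 for the axoneme list, and each of these 3 medians turned positive under quantile normalisation. Elongating spermatid genes had pair medians of 0.01, -0.06 and -0.56, the low value falling in pair 3, where 19 of the 23 were lower. Meig1, needed for the spermatid manchette, had 81597, 37960.0 and 48148 in AA and 97364, 87318 and 66126 in MTX, a difference of -0.64 (SE 0.42). The piRNA pathway, which silences transposons in germ cells, had 16 of 22 genes lower and a median of -0.12. It had pair medians of 0.02, -0.38 and -0.18, with 13 of the 22 genes higher in AA in pair 1. Its granule component Tdrd7 had 5951, 7971 and 5453 in AA and 6629.6, 12832 and 10997 in MTX (-0.62, SE 0.29). In the spermatogonial lists, 11 of 17 stem cell genes and 9 of 13 genes of differentiation and meiotic entry were higher in AA, with medians of 0.07 and 0.13. The pair medians ran both ways, -0.17, 0.09 and 0.34 for stem cell genes and 0.22, -0.11 and 0.39 for differentiation and meiotic entry. Without MTX replicate 1 the medians were -0.038 and -0.24, and they were also negative without AA replicate 2.

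Somatic lists mostly leaned the other way, towards AA. Of 21 extracellular matrix genes, 20 were higher in AA, the median difference being 0.45 and pair medians of 0.21, 0.22 and 1.09. All AA values lay above all MTX values in 4 of them, 19.0% of the list against 2.69% of all genes. Col1a2, a chain of type I collagen, had 5669.7, 7377 and 8537 in AA and 4749, 5412 and 3958 in MTX (0.60, SE 0.60). Col6a1, a chain of type VI collagen, had 1276, 1644 and 2124 in AA and 934, 1000.0 and 994 in MTX (0.75, SE 0.62). The other 2 were Col6a2 (0.62, SE 0.70) and Fbn1, the microfibril protein fibrillin (0.45, SE 0.45). Col6a1 in Control spanned 612 to 1399, so both groups overlapped it. The list median stayed between 0.12 and 0.64 in the 19 other settings, with the limit given for the spermatocyte list. The median transcript length of the matrix list was 5930 bases, against 3064 over all genes tested, and the part of length was not tested.

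Endothelial genes were higher in AA in 13 of 15, with a median of 0.47 and pair medians of 0.20, 0.52 and 0.62. Kdr, the main receptor of vascular endothelial growth factor, had 328, 293 and 369 in AA, 272, 199.6 and 178 in MTX and 177 to 260.1 in Control, a difference of 0.62 (SE 0.28). Tek, the receptor of angiopoietins, had 160.1, 184 and 245 in AA and 110.3, 139 and 137 in MTX, a difference of 0.59 (SE 0.33). All AA values exceeded all MTX values in these and in Esam (0.54, SE 0.50), 20% of the list against 2.69% of all genes. The junction protein Cdh5, by contrast, had 178, 382 and 629 in AA and 180.2, 385 and 275 in MTX and overlapped. The list median stayed between 0.18 and 0.68 in the 19 other settings, with the same limit.

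Leydig cell and steroid synthesis genes had a median of 0.43 over 15 genes but no lean towards AA in pair 1, the pair medians being -0.09, 0.64 and 0.59. Cyp11a1, which makes pregnenolone from cholesterol, had 6098, 7598 and 10422 in AA and 6805, 1746 and 5319 in MTX, a difference of 0.98 (SE 0.50). MTX2 was by far the lowest library, and MTX1 exceeded AA1. Star, which brings cholesterol into the mitochondrion, had 7735, 3398 and 3776 in AA and 4049, 1881 and 2358 in MTX (0.82, SE 0.59). Scarb1, the receptor for high-density lipoprotein, was the member without overlap, with 2182, 2474 and 2384 in AA and 1924, 1172 and 1928 in MTX (0.52, SE 0.27). It made up 6.67% of the list, against 2.69% of all genes. Insl3, a Leydig cell hormone, went the other way at -0.13 (SE 0.54).

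The related genes of cholesterol synthesis and uptake were higher in AA in 21 of 24, by a small median of 0.13 and by 0.02, 0.34 and 0.23 in pairs 1, 2 and 3. Lss, lanosterol synthase, had 582, 617 and 676 in AA and 439, 394 and 325 in MTX, a difference of 0.70 (SE 0.26) without overlap, and Control spanned 409 to 865. Genes with AA above MTX throughout were 4.17% of this list, against 2.69% of all genes. Dhcr7, the last enzyme of the pathway, had 372, 472 and 685 in AA and 314, 205 and 407 in MTX (0.73, SE 0.34). Of 23 Sertoli cell genes, 17 were higher in AA, and the median difference was 0.25. Trf, the iron carrier transferrin, had 775, 1237 and 1221 in AA and 561, 608 and 749 in MTX (0.73, SE 0.43) and did not overlap, whereas the Sertoli cell regulators Sox9 (0.08, SE 0.86) and Wt1 (0.02, SE 0.78) were nearly even. The share with AA above MTX throughout was 4.35% of the Sertoli list, against 2.69% of all genes.

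Fat cell and erythroid markers differed mainly in pair 3. Fat cell genes had a median of 0.84 and were higher in AA in 12 of 13, but the pair medians were -0.03, 0.23 and 2.09. The mean level of the list was 7.07, 7.62 and 7.66 in AA and 6.89, 7.48 and 5.23 in MTX. In Control it was 9.34, 6.79 and 5.46. MTX3 and Control replicate 3 thus both stood low, and AA3 did not. Car3, abundant in fat cells, had 175, 751 and 821 in AA and 179, 1042 and 28.4 in MTX. In pair 3, AA was higher in 12 of the 13. The exception was Adipoq, with 466, 245 and 173 in AA and 541, 227 and 244 in MTX. Plin1 was not low in MTX3 either, with 96.6, 97.4 and 112 in MTX, and Pnpla2 was nearly even in pair 3 (0.09). The largest pair median of the matrix genes was also in pair 3, and the part of fat cells in that result was not tested.

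Erythroid genes showed the opposite profile. Hbb-bs, a beta globin, had 814, 867 and 579 in AA and 891, 570.5 and 3901 in MTX, and the pair medians of the 6 genes were -0.04, 0.44 and -1.96. MTX3 alone was high. Without replicate 3 in both groups the Hbb-bs difference turned from -0.76 to 0.24.

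Immune lists were mixed. Of 44 interferon response genes, 35 were higher in AA, with a median of 0.23, but the median ranged from -0.22 without AA replicate 3 to 0.65. Oas2, an antiviral enzyme, was the member without overlap, with 17.6, 17.6 and 23.7 in AA and 7.38, 13 and 16.6 in MTX (0.68, SE 0.56). It made up 2.27% of the list, against 2.69% of all genes. Psmb9, an inducible proteasome subunit, went the other way, with 18.2, 76.4 and 130.3 in AA and 41.3, 181 and 260.3 in MTX (-1.12, SE 0.89). Macrophage and antigen presentation genes had a median of 0.16 over 23 genes, pair medians of -0.09, 0.25 and 0.46 and a median of -0.15 without AA replicate 3. Lymphocyte genes had a median of -0.53 over 11, which became 0.14 without AA replicate 1. Lymphocyte levels were low, as for Cd8a, a T cell co-receptor, with 4.19, 8.78 and 28.2 in AA and 9.05, 28.9 and 40.4 in MTX.

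**Figure D3:**
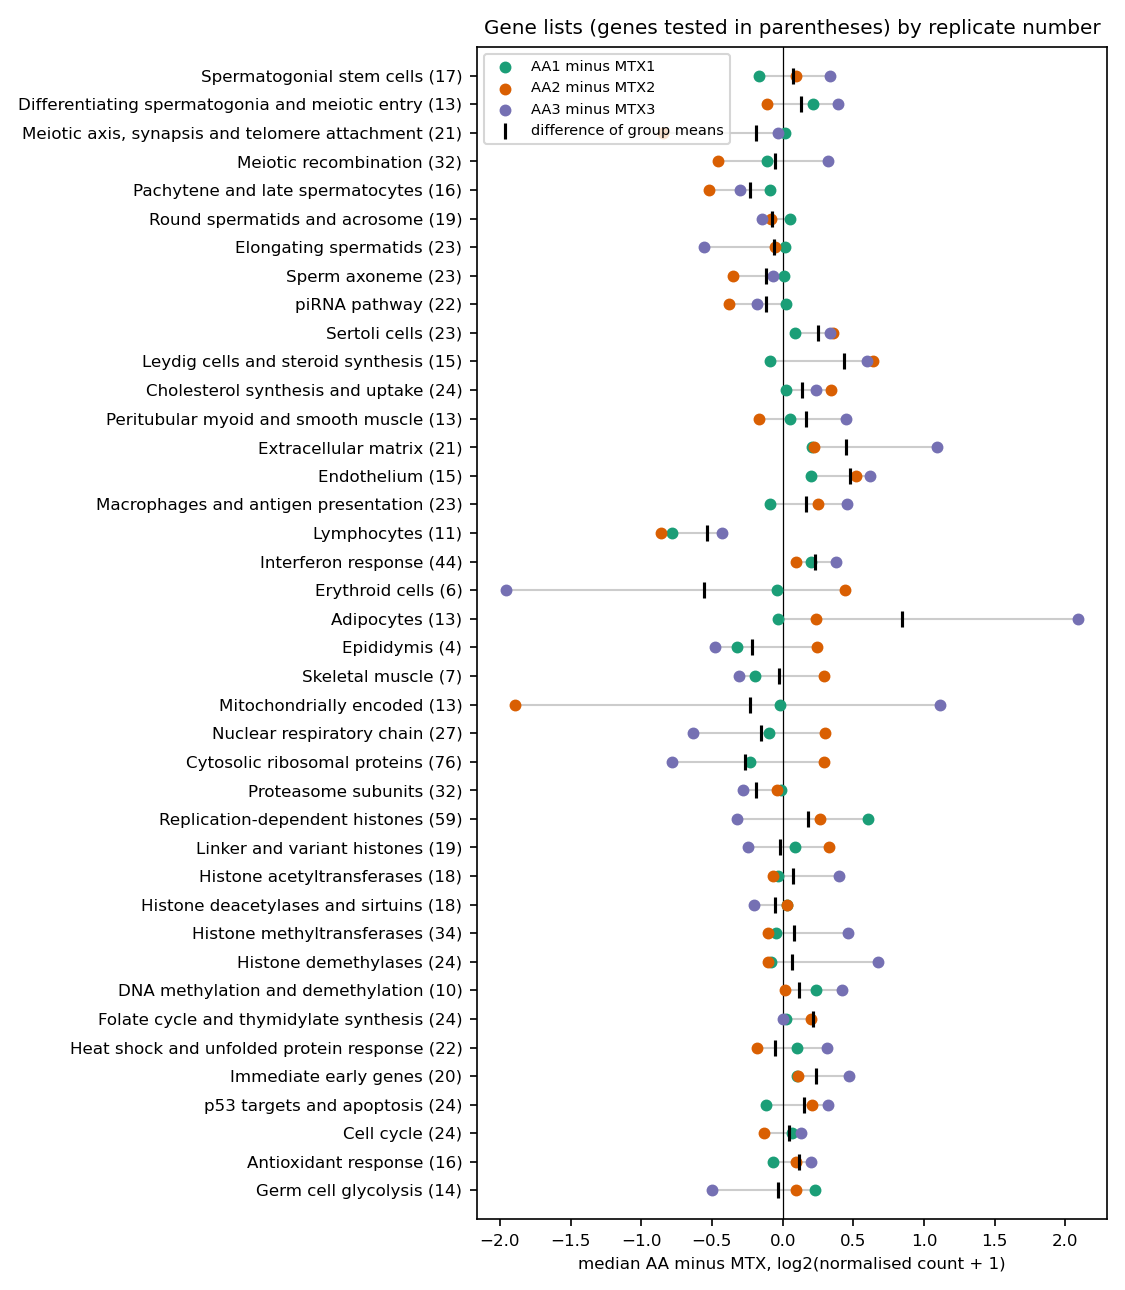
Median difference AA minus MTX over the genes of each list (horizontal, log2 scale), for pair 1, pair 2 and pair 3 (coloured points) and for the difference of group means (black mark). Extracellular matrix, endothelium and lymphocyte lists are among several with 3 points on the same side of 0. The mitochondrially encoded, adipocyte and erythroid lists have a single distant point or points on both sides.

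Chromatin genes, which the title of the series brings into view, were close to even. The median differences were 0.08 over 18 histone acetyltransferases, -0.05 over 18 deacetylases and sirtuins, 0.08 over 34 methyltransferases and 0.06 over 24 demethylases. None of these genes passed the test. Among the deacetylases, Hdac6, a cytoplasmic enzyme that acts on tubulin, had 1891, 1979.5 and 2399.9 in AA and 1699.9, 1454 and 1732 in MTX (0.36, SE 0.25), and Hdac7 had 122, 104 and 128 in AA and 81.6, 94.5 and 83.0 in MTX (0.44, SE 0.29). These were the 2 deacetylases without overlap, 11.1% of the list against 2.69% of all genes. Sirt6 had 76.2, 63.5 and 58.8 in AA and 30.1, 42.1 and 62.0 in MTX (0.61, SE 0.35), with AA3 below MTX3.

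Kdm4a, a demethylase of lysines 9 and 36 of histone H3, had 757, 868 and 1022 in AA and 624, 565 and 752 in MTX (0.45, SE 0.28) and was the demethylase without overlap. It made up 4.17% of that list, against 2.69% of all genes. The largest differences among the methyltransferases named by p were Setd7, with 332, 434 and 493 in AA and 198, 368 and 181 in MTX (0.81, SE 0.44), and the H3 lysine 9 enzyme Ehmt1, with 499, 379 and 647 in AA and 391, 379.5 and 267 in MTX (0.54, SE 0.28). In both, MTX3 was the lowest library. Pair 3 also held the highest medians of these lists, 0.40 for acetyltransferases, 0.46 for methyltransferases and 0.68 for demethylases, while pairs 1 and 2 lay between -0.11 and -0.03. Without replicate 3 in both groups these medians were negative. The median transcript lengths of these 3 lists were 4227, 5802.5 and 5351 bases, against 3064 over all genes tested. Differences in pair 3 ran with length as given below, and the part of length was not tested.

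Enzymes of DNA methylation and demethylation had a median of 0.11 over 10 genes. Beside Dnmt3a, the demethylating enzyme Tet3 had 257, 342 and 444 in AA and 259.9, 229 and 247 in MTX (0.47, SE 0.23), even in pair 1 and apart in the others. The maintenance methyltransferase Dnmt1 differed by 0.08 (SE 0.29) and Tet1 by -1.03 (SE 1.24). The replication-dependent histone genes themselves had a median of 0.18 and pair medians of 0.61, 0.27 and -0.32. Their median was -1.61 without AA replicate 1 and 1.77 without MTX replicate 1, the libraries in which these transcripts were high. Linker and variant histone genes had a median of -0.02 over 19 genes. H2afz, the variant H2A.Z, had 11085, 7522 and 7596 in AA and 13599, 6776 and 15135 in MTX (-0.38, SE 0.34).

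Genes of the folate cycle, which supplies carbon units for thymidylate and methionine, split in both directions. Of 24, 17 were higher in AA and 7 lower, with a median of 0.22. The pair medians were 0.02, 0.20 and 0.004, and 12, 17 and 12 of the 24 were higher in pairs 1, 2 and 3. Gldc, of the glycine cleavage system, had 123, 112 and 83.1 in AA, 202, 156 and 143 in MTX and 121 to 142 in Control, a difference of -0.65 (SE 0.25). Mthfs, which returns folinic acid to the active pool, had 93.5, 55.5 and 53.3 in AA and 109.9, 103 and 116 in MTX (-0.74, SE 0.42), and the mitochondrial enzyme Mthfd2l had 182, 260.2 and 164 in AA and 269, 269 and 338 in MTX (-0.55, SE 0.29). All AA values lay below all MTX values in these 3, 12.5% of the list against 2.6% of all genes.

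Other folate genes were higher in AA or near even, with overlap between the groups. The mitochondrial enzyme Aldh1l2 had 92.6, 38.1 and 69.7 in AA and 32.5, 44.4 and 19.4 in MTX (1.02, SE 0.44), the groups overlapping through AA2. Thymidylate synthase, Tyms, had 263, 113 and 171 in AA and 79.9, 60.1 and 216 in MTX (0.76, SE 0.49). The folate carrier Slc19a1 differed by 0.35 (SE 0.41).

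Genes for the protein-making and energy machinery were mostly lower in AA, though not in each pair. Cytosolic ribosomal protein genes were lower in 65 of 76, with a median of -0.27, and the pair medians were -0.23, 0.29 and -0.79. In pair 3, AA was lower in 74 of the 76, and in pair 2 it was higher in 47. Without replicate 3 in both groups the median was 0.02. The median transcript length of the list was 1100 bases, against 3064 over all genes tested, and the part of length was not tested. Rpl30 had 10753, 6682 and 8858 in AA and 14482, 15369.5 and 11435 in MTX (-0.67, SE 0.31), without overlap. Genes with AA below MTX throughout were 3.95% of the list, against 2.6% of all genes. Rps27 had 2796, 3941 and 2108 in AA and 23688, 1549 and 10472 in MTX (-1.35, SE 0.89), the groups overlapping through MTX2. Many ribosomal protein genes have processed pseudogenes that can share their reads, so single values are uncertain. With replicate number as a block, 10 of the 76 had an unadjusted p under 0.05 in limma and were lower in AA, 13.2% of the list beside 3.49% of all genes lower at that p and 3.53% higher.

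Nuclear genes of the respiratory chain had 23 of 27 lower, a median of -0.15, pair medians of -0.10, 0.30 and -0.63, and a median of 0.15 without replicate 3 in both groups. Uqcrc2 of complex III had 3731, 2805 and 3587 in AA and 3976, 5327 and 5333 in MTX (-0.53, SE 0.26), without overlap. Such genes were 7.41% of the respiratory chain list, against 2.6% of all genes. Proteasome subunits had 26 of 32 lower and a median of -0.19, with pair medians of -0.02, -0.04 and -0.28. Psmd8, a lid subunit, had 7809, 6500.4 and 7815 in AA and 8582, 8786 and 9463 in MTX (-0.28, SE 0.20). The genes of the mitochondrial genome followed the libraries, with pair medians of -0.02, -1.89 and 1.11 and a list median that turned from -0.23 to positive under quantile normalisation. Cytochrome b, mt-Cytb, had 13766, 137583 and 165200.0 in AA and 9813, 561895 and 74559.5 in MTX.

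**Figure D4:**
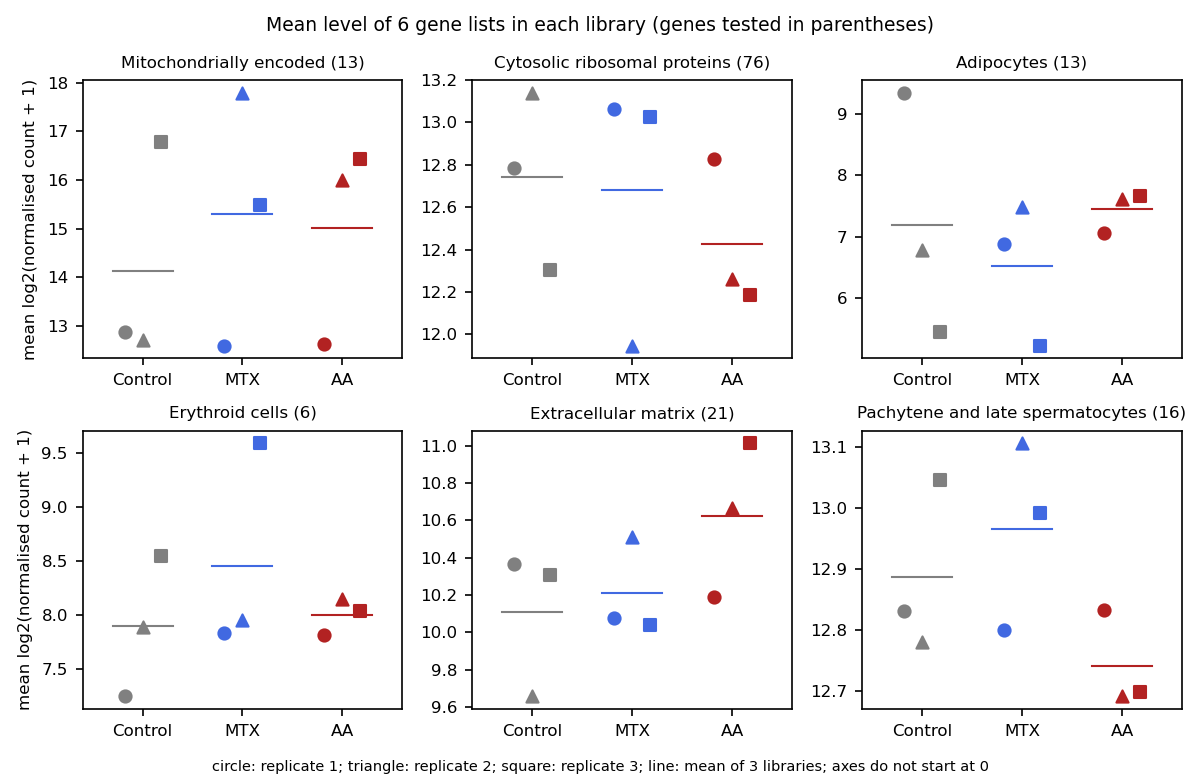
Mean level of 6 gene lists (vertical, mean log2(normalised count + 1), axes not starting at 0) in each Control, MTX and AA library. Symbols are libraries, shape gives the replicate number and lines are means of 3 libraries. MTX2 stands high for the mitochondrially encoded genes and low for ribosomal protein genes. MTX3 stands high for erythroid genes and, like Control replicate 3, low for fat cell genes.

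Stress and growth lists gave small medians. The p53 target and apoptosis list had 18 of 24 genes higher in AA and a median of 0.15, but 16 of the 24 were lower in pair 1, and the pair medians were -0.12, 0.21 and 0.32. Apaf1, the core of the apoptosome, had 289, 338 and 313 in AA and 152, 249 and 252 in MTX (0.56, SE 0.38), without overlap. It made up 4.17% of the list, against 2.69% of all genes. Immediate early genes, which respond within minutes to stimuli, lay higher in AA for 16 of 20, by a median of 0.24, and Fosb had 61.3, 70.7 and 12.1 in AA and 17.7, 13.1 and 17.8 in MTX. Cell cycle genes had a median of 0.04, between -0.04 and 0.15 in the other settings. Cdk1, the kinase that drives cell division, had 1419, 1242 and 1701 in AA and 1838, 1879.7 and 2205 in MTX (-0.45, SE 0.20), without overlap. It made up 4.17% of the cell cycle list, against 2.6% of all genes. Hmox1, a heme-degrading enzyme of the antioxidant response, had 293, 428 and 532 in AA and 164, 246 and 369 in MTX (0.72, SE 0.41), higher in AA in each pair although the groups overlapped. Heat shock genes had a median of -0.05 over 22 genes and germ cell glycolysis genes -0.03 over 14, and both signs reversed under quantile normalisation. Smooth muscle and myoid genes had a median of 0.16 over 13 genes and pair medians of 0.05, -0.17 and 0.45, and the median was -0.063 without AA replicate 3 and -0.17 without MTX replicate 1. Of this list, Myh11, smooth muscle myosin, had 1289, 1818 and 3032 in AA and 1057, 2463 and 1358 in MTX.

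Taken by replicate number, the 3 pairs shared little. Across the 17896 genes the pair differences had a Pearson correlation of -0.00095 between pairs 1 and 2, 0.081 between pairs 1 and 3 and -0.195 between pairs 2 and 3. These describe genes that share libraries and are not independent replicates. The match of numbers 2 and 3 is loose. In deviations from the group mean, AA2 correlated more with MTX3 (0.283) than with MTX2 (0.132). AA3 correlated more with MTX2 (0.450) than with MTX3 (0.244). The part of differences between replicates of the same treatment in the pair correlations was not tested. AA was higher in 48.8% of genes and lower in 50.6% in pair 1, higher in 50% and lower in 49.8% in pair 2, and higher in 52.6% and lower in 47.2% in pair 3. Differences past 1 in either direction were found in 1397 genes (7.81%) in pair 1, 3265 (18.2%) in pair 2 and 2756 (15.4%) in pair 3. A difference of at least 1 in the same direction in all 3 pairs was found in 23 genes higher in AA (0.129%) and 26 lower (0.145%). Pair 1 had the narrowest spread of differences, with a standard deviation of 0.77 over genes, against 0.99 in pair 2 and 0.87 in pair 3.

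The largest differences within a pair were at genes listed at or near 0 in 1 library. In pair 1, Ppp1ccb, a copy of a protein phosphatase 1 gene, had 0 in AA1 and 6259 in MTX1, and Fam177a had 663 in AA1 and 0 in MTX1. In pair 2, the protocadherin Pcdhgc4 had 550.0 in AA2 and 2.69 in MTX2, and Srp54b, another signal recognition particle gene, had 2198 in AA2 and 44.2 in MTX2. In pair 3, Cyp2e1 had 121 in AA3 and 0.688 in MTX3. None of these 5 genes had a difference of that size in another pair. Ppp1ccb and Srp54b have near-identical relatives that can share their reads, so their values are uncertain. The lowest genes of pairs 1 and 2 included processed pseudogenes such as Tpt1-ps3 and Rps6-ps4.

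A direct test asked whether the AA minus MTX difference in replicate 1 departed from that in replicates 2 and 3. limma called 0 of 17896 genes (0%), with a smallest adjusted p of 0.0823 and 503 genes (2.81%) at an unadjusted p under 0.05. This fit used the 12 treated libraries and assumed that a lone library varies like the others. Within replicates 2 and 3, limma called 2 genes (0.0112%), both of the Ccl21 chemokine family on chromosome 4. Ccl21b had 209, 0 and 0 in AA and 104, 75.9 and 112 in MTX (adjusted p = 0.0207 from limma for replicates 2 and 3). Gm21541 had 0, 268 and 259 in AA and 0, 0 and 0 in MTX (adjusted p = 0.0456 from limma for replicates 2 and 3). AA2 and AA3 were listed at 0 for the first gene and MTX2 and MTX3 for the second, so no fold is given.

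The 2 genes differed in opposite directions and are identical over the stretch of coding sequence printed here. Bases 70 to 159 of the coding sequences are shown for both and for Ccl21a, from the same GRCm38 transcripts, at chr4:42255924-42256013 on the plus strand, chr4:41903842-41903931 on the plus strand and chr4:42773672-42773761 on the minus strand. A capital marks a base that differs from Ccl21b.
Ccl21b: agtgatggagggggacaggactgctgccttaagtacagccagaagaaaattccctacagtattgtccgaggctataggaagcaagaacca
Gm21541: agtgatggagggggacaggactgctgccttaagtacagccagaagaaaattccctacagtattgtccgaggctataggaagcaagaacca
Ccl21a: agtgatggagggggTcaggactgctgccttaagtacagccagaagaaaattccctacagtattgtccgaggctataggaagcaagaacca
Ccl21b and the gene that shares all of its 31-base words summed to 209, 0 and 0 in AA and 104, 75.9 and 225 in MTX. Summed over the family of 5 genes, the normalised counts were 458, 619 and 509 in AA and 260.1, 232 and 483 in MTX. In replicates 2 and 3 the sum of shared words was lower in AA, like Ccl21b, and the family sum was higher in AA, like Gm21541, while AA1 lay below MTX3 in the family sum. Reads that match several copies can be divided among them, so the calls on single copies are uncertain.

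The pairs also differed in how the differences ran with transcript composition. When genes were put into 5 equal classes by the GC content of their longest transcript, the median difference went from -0.12 in the lowest class to 0.11 in the highest in pair 1, from -0.40 to 0.43 in pair 2 and from 0.29 to -0.12 in pair 3. By transcript length it went from -0.39 in the shortest class to 0.42 in the longest in pair 3 and stayed within -0.07 to 0.08 in pairs 1 and 2. Pairs 2 and 3 thus ran in opposite directions with GC content. Pair 3 climbed with length, while pair 2 fell slightly, from 0.08 in the shortest class to -0.06 in the longest. Averaged over pairs, the medians ran from -0.10 to 0.12 by GC content and from -0.14 to 0.10 by length. The gene lists differ in these properties, and the part of composition in their differences was not tested.

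**Figure D5:**
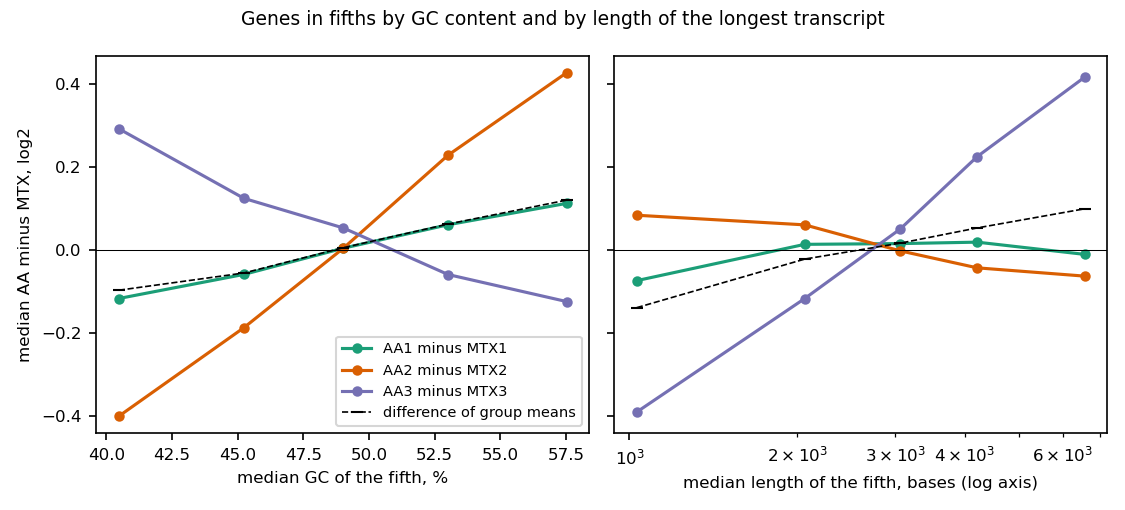
Median AA minus MTX difference (vertical, log2 scale) of genes in 5 equal classes by GC content (left, horizontal axis in %) and by length of the longest transcript (right, log axis in bases). Coloured lines are pairs 1, 2 and 3 and the dashed line is the difference of group means. Pair 2 climbs from -0.40 to 0.43 with GC content while pair 3 descends, and pair 3 climbs from -0.39 to 0.42 with length.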

How the data were processed

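RNA of whole mouse testes was sequenced. The deposited table holds gene-level signal values, counts that the authors normalised with DESeq2 size factors, 1 column per library. The submitters' processing notes name FastQC 0.11.9, Salmon 0.12.0, DESeq2 1.34.0 and the build GRCm39. Raw counts were not used here, and the depth per library is unknown, so only a relative depth was read from low values. Such values hide depth and follow how Salmon divides reads among similar transcripts.

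Genes whose mean over the 15 libraries reached 10 were taken as log2(value + 1) and fitted in R 4.3.3 with limma 3.58.1 (trended prior, 5 group means, 10 residual degrees of freedom). Benjamini-Hochberg adjustment ran over all 17896 genes. The SEs quoted come from the fit of 5 group means, which has no replicate term, so they include the spread between replicate numbers. Fold changes on this scale understate the change of low genes. Fits with the replicate number as a block, with the 6 libraries alone and by replicate number were added, and the fits were tested on simulated data. Replicate numbers come from the labels. The deviations of same-numbered AA and MTX libraries from their group means correlated across genes at 0.678, 0.132 and 0.244, above 0.1 in each pair. The numbers were treated as pairing the samples. AA2 correlated more with MTX3 (0.283) and AA3 with MTX2 (0.450), so the crossed numbers passed 0.1 as well. The correlations therefore cannot tell how replicates 2 and 3 pair, and pairs 2 and 3 follow the labels alone.

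The genes named are the 10 with the smallest p in each direction among those with a mean of at least 50 and the same sign in all pairs, the 2 of smallest p in each list, the 5 most extreme in each direction per pair or in the test of replicate 1 against replicates 2 and 3, and members of high mean in lists that split by replicate. Genes called in other fits and further list members, namely those without overlap and well-known markers, were chosen after their values were seen. Members and lists were chosen with earlier results of these data known. Transcript sequences, lengths and GC content come from GENCODE M21 (GRCm38), which is not the authors' build, so genes were matched by identifier.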

Additional observations from a re-analysis of the deposited data

How the results depend on the processing

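The count of genes at an adjusted p under 0.05 was 0 for AA against MTX and 2 with the 6 AA and MTX libraries only, also 2 with the replicate block over these 6. It stayed at 0 with the replicate block over 12 libraries and without each replicate in turn, where 147 to 523 genes had an unadjusted p under 0.05. For replicate 1 against replicates 2 and 3, 0 became 20 with a pseudocount of 0.1 and 565 with no filter on low values. Within replicates 2 and 3, 2 became 0 with a pseudocount of 10, 56 with no filter, 0 with a mean of at least 50 and 1 with quantile normalisation. The count of genes past 1 in all 3 pairs went from 23 higher and 26 lower to 10 and 6 with a pseudocount of 10, 52 and 85 with no filter, and 8 and 3 with a mean of at least 50. Raising the mean removes genes by construction, and the cause of the other shifts was not tested. Of 97 genes followed through 19 other settings, 8 reversed in some setting and none of the 20 genes with the smallest p did. The lack of overlap of those 20 fixed this for settings that leave out libraries or change the pseudocount, so nothing is read from it. Settings that change only the spread, such as a replicate block, cannot reverse any gene. Dmrtb1 was 0.000819 with quantile normalisation. Over single libraries or replicates left out, Cfap70 ranged from -0.33 to 0.040 (without replicate 2), Myh11 from -0.076 (without replicate 3) to 0.72, Hbb-bt from -1.43 to 0.18 (without replicate 3), and Hbb-bs from -1.44 to 0.24 (without replicate 3), with 0.057 without MTX replicate 3. Rnase10 ranged from -0.41 to 0.024 (without MTX replicate 1), mt-Nd3 from -1.26 to 0.41 (without replicate 2), with 0.32 without MTX replicate 2, and mt-Nd6 from -1.67 to 0.24 (without AA replicate 1), with 0.13 without MTX replicate 2. Of 40 list medians, 20 moved by more than the spread between pairs in some setting. The depth of the libraries is unknown, so no limit of detection is given.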

Other observations

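Genes for olfactory and vomeronasal receptors, a very large family of sensory receptors of which some members are transcribed in testis, leaned towards lower values in AA. This group was chosen after its values were seen. Of 147 receptor genes tested, 129 were lower in AA, with a median difference of -0.51 against 0.00 over all genes tested, and the pair medians were -0.16, -0.80 and -0.61. AA was lower in 88, 106 and 121 of the 147 in pairs 1, 2 and 3, and in 48 of them in all 3 pairs. Vmn1r58 had 2.34, 8.78 and 2.02 in AA, 10.6, 54.7 and 12.7 in MTX and 8.62 to 36.2 in Control. Olfr1238 had 18.7, 63.9 and 16.3 in AA and 43.9, 268 and 68.2 in MTX. Values of the group were low, with a median level of 24.2 normalised counts, and the median GC content of its transcripts was 39.2% against 49.0% over all genes tested. The part of GC content and of low values in this result was not tested.

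The 49 genes that differed by at least 1 in the same direction in all 3 pairs were few among the 17896 tested, and those named here were chosen after their values were seen. Aqp5, a water channel of secretory epithelia, had 36.4, 65.9 and 64.5 in AA and 17.4, 4.17 and 16.1 in MTX, a difference of 2.22 (SE 0.51). Epn3, an endocytic adaptor of epithelia, had 69.4, 70.0 and 72.2 in AA and 15.3, 6.18 and 21 in MTX (2.38, SE 0.86), and Msln, the mesothelial surface protein mesothelin, had 53.3, 67.0 and 35.7 in AA and 15.7, 25.3 and 15.4 in MTX (1.41, SE 0.54). The Control ranges were 14.2 to 24.3, 2.55 to 59.1 and 27.4 to 29.0. Lower in AA were Shisal1, with 17.2, 4.93 and 4.26 in AA, 153, 29.9 and 33.4 in MTX and 7.82 to 17.3 in Control (-2.72, SE 0.96), and the transcription factor Creb5, with 5588, 104 and 624 in AA and 13887, 974 and 3556 in MTX (-2.35, SE 1.83). Creb5 followed the replicate number in both groups, highest in replicate 1 and lowest in replicate 2. None of these passed the test over all genes.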
